A study of Nothobranchius furzeri with 20 samples.

Results

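The comparison set 5 skin libraries of exercised 27-week turquoise killifish, with sample titles JM140.5 to JM144.5, against 5 skin libraries of unexercised 9-week fish, with titles JM124.5 to JM128.5. These 10 libraries were chosen by their labels from the 20 of the study. All fish were male Nothobranchius furzeri of the strain MZM-04/10p. The older fish are labelled swim-tunnel, a device that makes fish swim against moving water, and the younger fish are labelled as having no perturbation. The other 10 libraries came from exercised 9-week fish and from exercised 27-week fish with titles JM132.5 to JM136.5. Every library is treated as a single fish, although no label states that the animals were separate. The p-values therefore cover only the spread between these libraries, which may be technical. Age, exercise and the run of title numbers all differ between the groups and cannot be told apart. The labels name no unexercised fish of 27 weeks, and give no meaning to the title runs. Fish are called exercised or unexercised here by label alone, and both 27-week title runs carry the same label. In what follows, replicates 1 to 5 of each group follow the order of the titles.

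The turquoise killifish is an annual fish of seasonal African ponds, and its short life makes it a model of vertebrate ageing. Strains of the MZM series are wild-derived and live longer than the inbred strain GRZ. Fish skin consists of a living, mucus-covered epidermis of keratinocytes and gland cells, above a collagen-rich dermis that bears scales and pigment cells, and samples of it can carry blood, immune cells and underlying muscle. In vertebrates, ageing skin is known for slower renewal of the epidermis and lower synthesis of dermal collagen, and endurance exercise for effects on circulation and metabolism. The files give each gene as an identifier alone, and 0 of 26739 identifiers matched the gene table at hand, so no gene is given a name or function here and the tissue label was not checked against markers. Genes are therefore described by size of change, level, length and the fish in which they were high or low.

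The libraries were of similar depth. Totals were 24770446 to 31594796 counts in the 27-week fish and 25924289 to 36229449 in the unexercised 9-week fish, and levels are given as counts per 1000000 counts of a library (CPM), after scaling. The number of genes at 1 CPM or more was 16188 to 16778 and 16054 to 17043. The 10 highest genes of each library took 16.0% to 21.1% and 13.5% to 18.4% of its counts. None of these measures passed an exact two-sided permutation test of 5 against 5 libraries (adjusted p = 0.357 to 0.714 over 5 measures). The TMM scaling factor, which corrects for a few abundant genes taking up reads, was lower in the older fish, at 0.929 ± 0.0517 against 1.08 ± 0.0881 (SD, n = 5 each). The exact permutation test gave p = 0.00794, the smallest it can give, and an adjusted p of 0.0397. It did not pass the correction without 9-week replicate 3 (adjusted p = 0.0794) or without any 1 of the 27-week fish (0.119 to 0.159). Its 5 values in the older fish, 0.874 to 0.987, lay below all 5 in the younger fish, 0.989 to 1.18, by a narrow margin.

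In each group 1 fish, 9-week replicate 3 and 27-week replicate 2, had the highest number of genes far above the rest of its group, and the main counts are given with and without this pair, called here the fish that stood apart. In a principal component analysis of the tested genes, the first component, with 41.7% of the variance, separated fish of the same group as well as the groups. On it, 27-week replicates 1, 3, 4 and 5 lay between 40.9 and 56.4, while replicate 2 lay at -44.9, among the younger fish. The unexercised 9-week fish spread from -81.2 in replicate 3 to 35.2 in replicate 5. The second, with 17.1%, came closer to the labels. Replicates 1, 2, 4 and 5 of the 9-week fish lay between -42.1 and -24.8 on it, and their replicate 3 lay at 9.56. The 27-week fish lay between 4.22 and 70.0, with replicate 2 the highest.

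**Figure D1:**
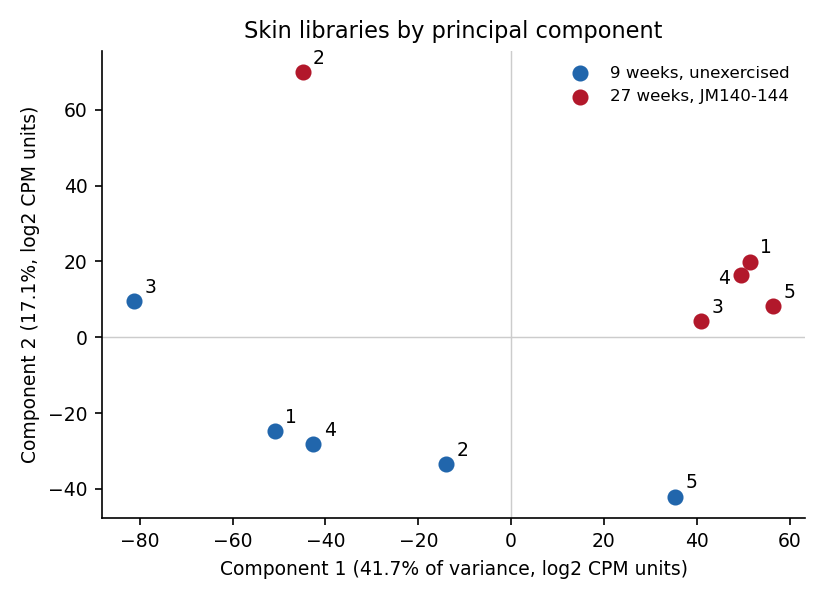
Each point is 1 library, placed by its scores on the first 2 principal components of log2 CPM over the tested genes, and numbered by replicate. 27-week replicate 2, at -44.9 on the horizontal axis and 70.0 on the vertical one, lies far from the other 4 fish of its group, and 9-week replicate 3 lies at the left, at -81.2.

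The gap between replicate fish was seen gene by gene as well. Replicate 3 of the unexercised fish was over 4-fold above the median of the other fish of its group in 558 genes, and over 4-fold below it in 51. Replicate 2 of the 27-week fish was over 4-fold above in 493 genes and below in 93. In the other 8 fish, 21 to 101 genes were over 4-fold above. Genes far below were most frequent in other fish, with 360 in 9-week replicate 5 and 221 in 9-week replicate 2, against 28 to 86 in the remaining 6. The 558 genes high in the younger fish had low levels, with a median of 2.44 CPM against 10.3 CPM over all tested genes. Of them, 21.7% were also over 4-fold above the group median in the older fish, which is 24.5% of the 493 genes high there. Over all tested genes that share was 2.67%, a base that is not matched for the low level of the 558 genes.

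The comparison asked how skin expression of exercised 27-week fish differed from that of unexercised young fish. In edgeR's quasi-likelihood test 2628 of 18436 genes differed at an adjusted p under 0.05, which is 14.3% of those tested. Of these, 1332 were higher at 27 weeks (7.22%) and 1296 were lower (7.03%). The groups did not overlap in 2319 genes, 12.6% of those tested, with 1046 higher (5.67%) and 1273 lower (6.9%) at 27 weeks. Before adjustment, 5777 genes had a p under 0.05. The even split of calls depends on the scaling. With library totals alone, which shifts the median log2 fold change over all tested genes from -0.03 to -0.25, 628 genes were higher and 3603 lower. Of the 2628 genes, 1920 remained called in the same direction with library totals alone.

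The count of calls depended on which fish were included. Leaving out 1 of the unexercised fish gave 1569 calls without replicate 1, 1587 without replicate 2, 1448 without replicate 4 and 2084 without replicate 5. Without 27-week replicate 4 or 5 there were 1446 and 1474 calls. Leaving out either fish that stood apart raised the count, to 2873 without 9-week replicate 3 and 3156 without 27-week replicate 2. Without both there were 3387 calls, 1632 higher and 1755 lower, and 2222 of the 2628 genes remained called in the same direction.

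With all 10 fish, calls of more than 2-fold were more often increases and calls of small size more often decreases. Among called genes, 435 were more than 2-fold higher at 27 weeks and 180 more than 2-fold lower, and 70 and 36 by more than 4-fold. Under 1.5-fold the order turned, with 384 genes higher and 686 lower. The median log2 fold change was 0.77 among higher genes and -0.57 among lower genes, against -0.03 over all tested genes, and the smallest change called was 0.22. The excess of increases depended on the scaling and on which fish were included. Beyond 2-fold it was gone without 27-week replicate 2, where decreases went from 180 to 469 and increases from 435 to 459. It was smaller without both fish that stood apart (510 against 365) and turned with library totals alone (260 against 498). Limma-voom (421 against 165), DESeq2's size factors (443 against 176) and DESeq2 itself (585 against 269) kept it. So did 1 surrogate variable (416 against 167) and the fit of all 20 libraries (439 against 257). Beyond 4-fold there were 64 genes higher and 251 lower without replicate 2, 60 and 147 without both fish, and 77 and 75 in the fit of all 20 libraries.

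The called genes that changed by under 1.5-fold were abundant ones, with median levels at 27 weeks of 28.3 CPM in those that rose and 20.5 CPM in those that fell. Small changes pass the threshold more easily at high levels, where standard errors were smaller, so this describes the calls alone. Genes more than 4-fold higher had a median of 6.60 CPM at 27 weeks and 1.19 CPM in unexercised fish. Genes more than 4-fold lower had a median of 0.546 and 5.03 CPM. Of the 70 and 36 genes beyond 4-fold, 65 and 33 remained called in the same direction without the 2 fish that stood apart.

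The 251 genes more than 4-fold lower without 27-week replicate 2 differed between fish of the same label. Of them, 247 were also tested with that fish, and 34 were then called lower. That fish was above the other 4 of its group in 227 of the 247, at or above the lowest unexercised fish in 224 and above all unexercised fish in 80. The median level over these genes was 10.5 CPM in 27-week replicate 2 and 0.219 to 0.381 CPM in the other 4 fish of its group, on the scale set over all 20 libraries.

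The unexercised fish divided on the same genes. The median level was 9.71, 1.98, 9.69, 7.83 and 0.222 CPM in replicates 1 to 5, so that replicate 5 stood with the low 27-week fish and replicates 1, 3 and 4 with the high one. The libraries outside the comparison divided as well. In exercised 9-week fish the median was 3.93 CPM in replicate 1 and 0.206 to 0.374 CPM in the other 4. In the 27-week fish of titles JM132.5 to JM136.5 it was 0.223, 1.59, 0.188, 0.680 and 3.36 CPM. The set was looked at because leaving out 27-week replicate 2 added so many genes, and the other 9 compared fish chose its members, so the values of all 10 compared fish are descriptions. The other 10 libraries had no part in the choice. What the genes are, and whether they come from other cells in the samples, was not tested.

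**Figure D2:**
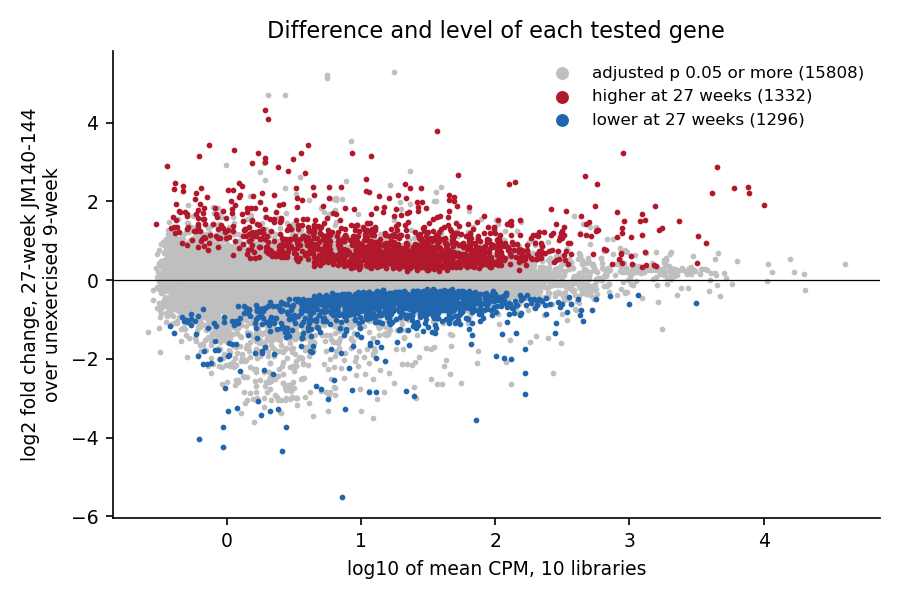
Each point is 1 tested gene, with the log10 of its mean CPM over the 10 libraries on the horizontal axis and its log2 fold change, 27-week JM140.5 to JM144.5 over unexercised 9-week fish, on the vertical one. Of the 1332 genes called higher, 70 lie above a log2 fold change of 2, and of the 1296 called lower, 36 lie below -2.

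The steepest increase by the naming rule was that of Nfu_g_1_020995, a gene of 0.873 kb. Its level at 27 weeks was 5.45, 4.22, 2.49, 3.15 and 3.26 CPM in replicates 1 to 5. In the unexercised 9-week fish it was 0.252, 0.220, 0.196, 0.122 and 0.121 CPM, which rests on 4 to 9 counts per library against 64 to 151 at 27 weeks. Genes were named for being called, for groups that did not overlap and for size of change. For the 4 named genes these traits therefore hold by choice. The lowest older fish was far above the highest younger one. It rose 20.0-fold. On the log2 scale this was 4.32 with an SE of 0.31 (edgeR, adjusted p = 0.00035).

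Nfu_g_1_013635, a gene of 1.67 kb, rose by a similar factor but unevenly between fish. It had 0.722, 13.1, 1.67, 1.26 and 2.67 CPM in replicates 1 to 5 of the 27-week fish. The unexercised fish had 0.110 to 0.393 CPM, from 4 to 14 counts. Among the 27-week fish, replicate 2, 1 of the fish that stood apart, held most of the summed level. The log2 fold change was 4.10 (SE 0.84, edgeR adjusted p = 0.0125), and 2.79 without that fish (adjusted p = 0.00653). It was 3.31 with limma-voom (adjusted p = 0.0444).

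Nfu_g_1_007489, a gene of 0.645 kb, had the steepest decrease by the same rule. It had 3.09, 10.3, 5.40, 2.51 and 3.37 CPM in replicates 1 to 5 of the unexercised fish and 0.180, 0.194, 0.584, 0.199 and 0.0417 CPM in those of the 27-week fish. The older fish had 1 to 15 counts. The gene was 20.1-fold lower at 27 weeks. The log2 fold change was -4.33, with an SE of 0.60 (edgeR, adjusted p = 0.00289), and -4.93 without 27-week replicate 3, the highest fish of its group.

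Nfu_g_1_021005, a gene of 1.66 kb, was the most abundant of the 4 and fell from a level well above the counting floor. The unexercised fish had 149.6, 120.8, 80.4, 138 and 179 CPM in replicates 1 to 5, and the 27-week fish had 12.5, 12.2, 14.8, 6.09 and 11.1 CPM. The groups were far apart, with 2459 to 5953 counts against 184 to 379. The mean fell from 133.7 ± 36.6 to 11.3 ± 3.21 CPM (SD, n = 5 each), 11.7-fold lower, or -3.55 on the log2 scale with an SE of 0.27 (edgeR, adjusted p = 0.000416).

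The libraries that did not enter the comparison place these 4 genes differently. On a scale set over all 20 libraries, the exercised 9-week fish had 0.251 to 1.05 CPM of Nfu_g_1_020995 and 40.1 to 236 CPM of Nfu_g_1_021005, and the 27-week fish of titles JM132.5 to JM136.5 had 1.31 to 7.05 and 1.73 to 40.6 CPM. For both genes all exercised 9-week fish lay on the side of the unexercised ones in relation to the 27-week fish of titles JM140.5 to JM144.5, which had 2.61 to 5.68 and 6.38 to 15.4 CPM. Nfu_g_1_013635 had 0.102 to 0.514 CPM in exercised 9-week fish and 1.86 to 22.5 CPM in the 27-week fish of titles JM132.5 to JM136.5. Replicate 2 of that run alone had the 22.5 CPM, and the next highest fish had 2.69 CPM. Nfu_g_1_007489 varied widely inside each of the other groups, from 0.160 to 6.04 CPM in exercised 9-week fish and from 0.0461 to 11.1 CPM in the 27-week fish of titles JM132.5 to JM136.5. The older fish compared here were low throughout in a gene that was high in some exercised fish of both ages. Set against the exercised 9-week fish, with the same older fish, its log2 fold change was -3.11 (SE 1.01, edgeR adjusted p = 0.0596), and those of Nfu_g_1_020995, Nfu_g_1_013635 and Nfu_g_1_021005 were 2.70, 3.46 and -3.22 (adjusted p = 0.003, 0.0187 and 0.0033).

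**Figure D3:**
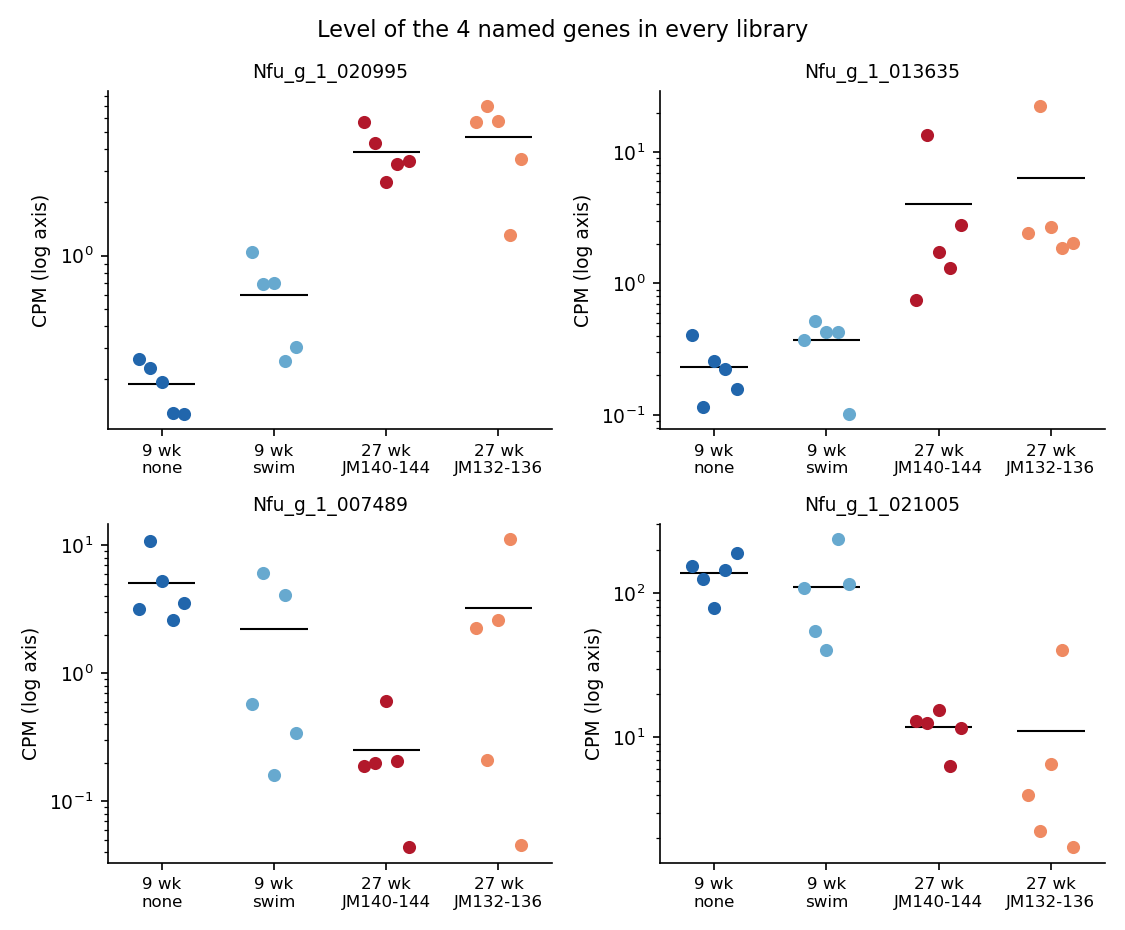
Level of the 4 named genes in each of the 20 libraries, in CPM scaled over all 20 and on a log axis, with 1 point per library and a line at each group's mean. In all 4 genes the unexercised 9-week fish and the 27-week fish of titles JM140.5 to JM144.5 do not overlap, as the naming rule required. Nfu_g_1_007489 ranges from 0.0461 to 11.1 CPM in the other 27-week fish.

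Among classes of level, called genes were most frequent in the most abundant one, and there they were mostly higher in the older fish. Levels between genes were compared as mean CPM per kb of gene length. Of 522 genes at 100 CPM per kb or more, 98 were higher (18.8%) and 22 lower (4.21%). Of 4132 genes between 10 and 100 CPM per kb, 456 were higher (11%) and 400 lower (9.68%). Of 10350 genes between 1 and 10 CPM per kb, 628 were higher (6.07%) and 787 lower (7.6%). Below 0.3 CPM per kb 6.64% of 1055 genes were called, where the median standard error of the log2 fold change was 0.37 against 0.15 in the most abundant class. The median log2 fold change of all genes in the most abundant class was 0.21, against -0.05 in the class between 1 and 10 CPM per kb.

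The excess of increases among abundant genes held when DESeq2's size factors were used (98 against 21) and without the 2 fish that stood apart (94 and 41). With library totals alone, which lowered the median log2 fold change of every class, 75 were higher and 76 lower. The class between 1 and 10 CPM per kb then had 249 higher and 2234 lower. The median log2 fold change was -0.01 in the most abundant class and -0.28 in that one, so the most abundant class still lay above it. The share of a library's counts that fell in these 522 genes is not itself scaled. The genes, however, were chosen by scaled level over the same 10 libraries. That share was 57.4% to 62.5% in the 27-week fish (median 59.9%) and 51.0% to 57.4% in the unexercised fish (median 54.8%). The lowest older fish was just above the highest younger fish, at 57.40% against 57.35%. For the 100 most abundant genes per kb the groups overlapped, at 31.8% to 39.5% in older and 30.4% to 36.5% in younger fish. They also overlapped for the top 10, at 8.90% to 15.9% and 9.49% to 13.4%. For the top 500 they did not, by a narrow margin (56.94% against 56.88%). In bulk tissue a change in the cells present and a change in RNA per cell cannot be told apart. Among the 100 most abundant genes per kb, which start at 1141 CPM per kb, 17 were higher and 1 was lower, with log2 fold changes of -1.24 to 2.88 over all 100. The share called was 18% there, against 14.3% of all tested genes. It was 12% in the top 50 (6 genes, all higher) and 10% in the top 10 (1 gene, higher), too few genes to rank the very top by frequency of calls.

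**Figure D4:**
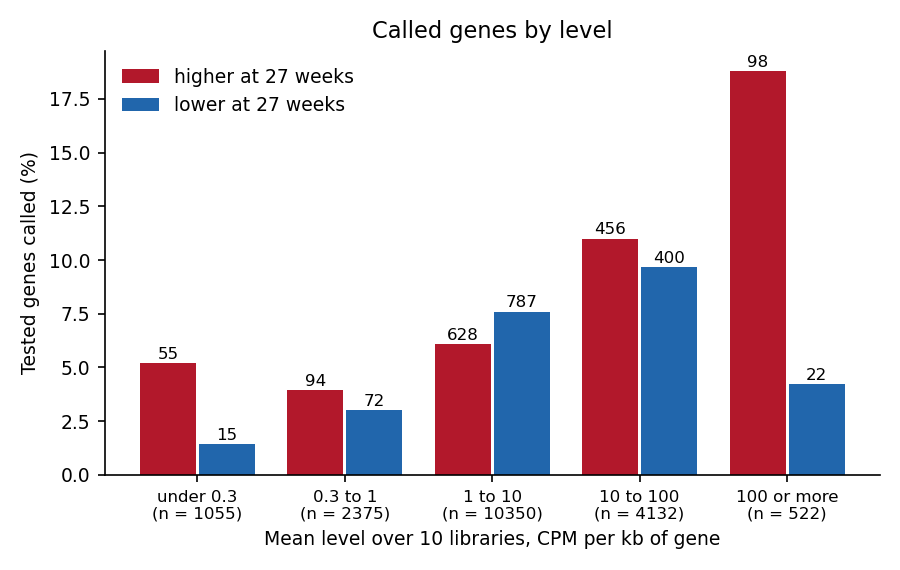
Percent of tested genes called higher or lower at 27 weeks, by mean level over the 10 libraries in CPM per kb of gene, with the number called above each bar. In the most abundant class 98 of 522 genes were higher and 22 lower, while between 1 and 10 CPM per kb 628 were higher and 787 lower.

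Gene length went with the calls only slightly. In the 25% of tested genes that were shortest (median length 0.81 kb), 7.67% were higher and 5.61% lower. In the longest 25% (median length 6.51 kb), 6.34% were higher and 7.68% lower. Length went with level, with a median of 1.12 kb in the most abundant class and 2.93 kb between 1 and 10 CPM per kb. From shortest to longest 25%, the share higher went from 4.97% to 6.14% at 1 to 10 CPM per kb. It went from 11.1% to 8.22% at 10 to 100 and from 17.3% to 24.1% at 100 or more. The longest 25% at 100 or more held only 29 genes, with 7 higher and 1 lower. The share lower went from 4.93% to 9.18%, from 8.08% to 9.44% and from 3.4% to 3.45% in the same classes. At the same CPM per kb a longer gene has more counts and is called more easily, so these shares do not separate length from precision. Each library's slope of relative log2 CPM on log2 gene length averaged -0.00123 ± 0.0127 in the 27-week fish and 0.00123 ± 0.00359 in the unexercised fish (SD, n = 5 each). The exact permutation test gave p = 0.738, also after adjustment. The difference of -0.00245 was not stable in size or sign. It was -0.0126 over genes at 1 CPM in 5 libraries and 0.00255 without 27-week replicate 2 (adjusted p = 0.0992 and 0.532 in the same test). The lowest slope was -0.0212, in 27-week replicate 2, and the highest was 0.0134, in replicate 4 of the same group. Lengths are those behind the authors' RPKM table.

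No gene changed from silent to clearly expressed in all fish of a group. There were 228 genes with 0 counts in all 5 unexercised fish and at least 1 count in some 27-week fish, and 326 with the reverse. In 1 and 4 of them, respectively, every fish of the other group had a count, at 1 to 4 and 1 to 5 counts per fish. With at least 10 counts in every fish of the other group there were 0 in either direction. These are counts of detection, with no test.

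Differences carried by 1 fish were common among large differences of the means. Group means differed more than 4-fold in 257 genes whose mean reached 1 CPM, and 87 of these were called. Over all tested genes, which were not chosen by size of difference, 14.3% were called. In 79 of the 257, 1 fish held over 80% of the summed level of the higher group, and 0 of the 79 were called by edgeR's test or by limma-voom. A group with such a fish has a wide spread by this definition, so calls were unlikely in advance. Before adjustment, 52 of the 79 had a p under 0.05 in edgeR, and DESeq2 gave no adjusted p for any of the 79. Replicate 3 of the unexercised fish was that fish in 75 of them and 27-week replicate 2 in the other 4.

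Over all called genes, more than 1 fish of each group often lay nearer the other group. A fish was counted as past the midpoint for a gene when its log2 CPM lay nearer the other group's mean than its own. This was so in 64 to 283 of the 2628 called genes in the 27-week fish and in 69 to 287 in the unexercised fish. The highest counts were 287 in 9-week replicate 3, 283 in 27-week replicate 2 and 278 in 27-week replicate 3, which had not stood apart. 9-week replicate 5 was past the midpoint in 151 of the genes that rose and 52 of those that fell, and 9-week replicate 3 in 80 and 207. The other unexercised fish had 34 to 49 and 31 to 47. By direction, replicate 5 thus stood out among genes that rose and replicate 3 among genes that fell. Since the genes were called from these fish, these counts describe the calls and test nothing.

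Pairs of fish across the groups differed more than most pairs within them, but the ranges met. The median absolute log2 difference over tested genes was 0.211 to 0.374 in the 10 pairs of unexercised fish, 0.196 to 0.368 in the 10 pairs of 27-week fish and 0.305 to 0.438 in the 25 pairs across groups, with medians of 0.235, 0.277 and 0.366. The closest pair of all was 27-week replicates 4 and 5. The widest pair within a group was 9-week replicates 3 and 5, which differed more than 4-fold in 1007 genes, against a median of 597 genes in pairs across groups. The typical SD of log2 CPM between fish was 0.27 at 27 weeks and 0.26 in unexercised fish, as medians over genes, and 1082 genes had an SD over 1 in the unexercised fish against 784 at 27 weeks.

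The other 10 libraries give a comparison of 27 with 9 weeks that shares no fish with this one: titles JM132.5 to JM136.5 at 27 weeks against exercised 9-week fish. In that comparison 9238 of 18348 genes were called, 50.3%, with 4746 higher (25.9%) and 4492 lower (24.5%). Of 1323 genes higher here and tested there, 684 (51.7%) were higher and 51 lower there. Of 1286 genes lower here, 868 (67.5%) were lower and 71 higher there. These shared genes are 14.4% and 19.3% of the higher and lower lists of the other libraries. The median log2 fold change there was 0.65 for genes higher here and -0.69 for genes lower here, against -0.02 over all 18087 genes tested in both. Genes more than 4-fold higher here had a median of 2.36 here and 1.80 there, and those more than 4-fold lower -2.85 here and -1.18 there. Since they were chosen for a large change here, smaller values there can come from the choice alone. Of the 4 named genes, 3 were called in the same direction there, with log2 fold changes of 2.97, 4.09 and -3.28 for Nfu_g_1_020995, Nfu_g_1_013635 and Nfu_g_1_021005 (edgeR adjusted p = 0.000544, 0.00207 and 0.0115). Nfu_g_1_007489 had 0.59 (SE 1.21, adjusted p = 0.708).

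The difference between the 2 comparisons was tested in a fit of all 20 libraries. It passed in 5832 of 19140 genes, 30.5%. Among the genes called higher here it passed in 567 of 1332 (42.6%), with the fold change more positive here in 264 and more negative in 303. Among the genes called lower here it passed in 496 of 1296 (38.3%), more positive here in 276 and more negative in 220. It passed for Nfu_g_1_007489, whose log2 fold change was lower here by a difference of -4.93 (SE 1.55, edgeR adjusted p = 0.0215). It did not pass for Nfu_g_1_020995, Nfu_g_1_013635 or Nfu_g_1_021005, with differences of 1.33, -0.01 and -0.29 (adjusted p = 0.0993, 0.999 and 0.843 in edgeR's test). The called and named genes were chosen on one side of this difference. The shares, and the p-values of the named genes, are therefore descriptions. The comparisons differ both in the title run of the older fish and in the exercise of the younger fish. Set against the same exercised 9-week fish, the older fish of titles JM140.5 to JM144.5 gave 2927 calls and those of titles JM132.5 to JM136.5 gave 9238, and the log2 fold change of Nfu_g_1_007489 was -3.11 in the first (edgeR adjusted p = 0.0596) and 0.59 in the second, neither of them called. These fits share their 9-week fish, and the difference between them was not tested here.

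**Figure D5:**
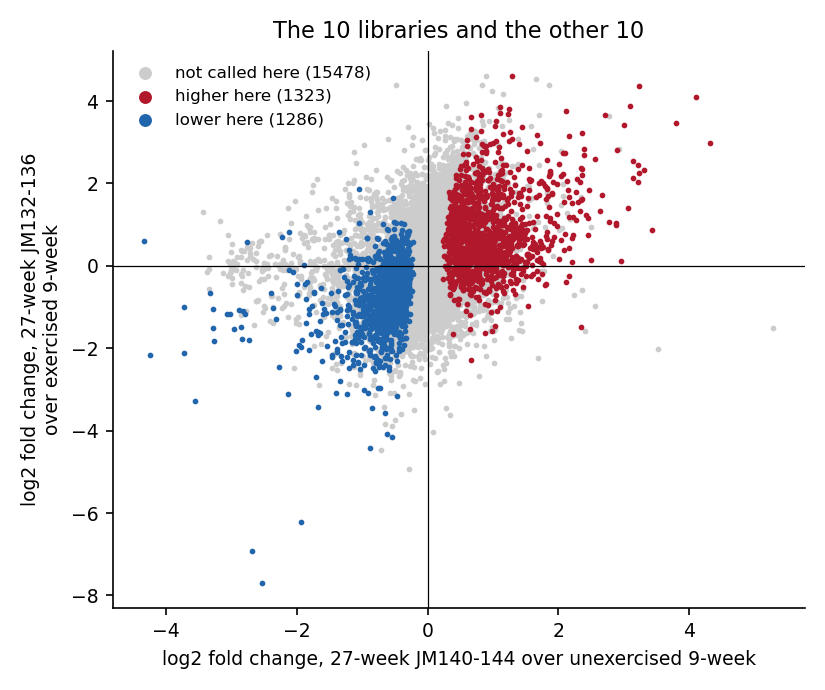
Each point is 1 gene tested in both comparisons, with its log2 fold change in the 10 libraries described here on the horizontal axis and in the other 10 libraries on the vertical one. Of the genes called higher here (1323 shown) 684 were called higher in the other libraries, and of those called lower (1286 shown) 868 were called lower.

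Exercised young fish can be set beside these genes by level. Relative to the unexercised 9-week fish, the median log2 level of the 1332 higher genes was 0.15 in exercised 9-week fish, 0.77 in the 27-week fish of titles JM140.5 to JM144.5 and 0.80 in those of titles JM132.5 to JM136.5. For the 1296 lower genes it was -0.09, -0.56 and -0.80, and over all tested genes it was 0.02, -0.01 and -0.06. The same unexercised fish are the reference for all 3 values and took part in choosing the genes, so the shift of the other groups is a description and no test. With the exercised 9-week fish as the reference for the same older fish, 2927 of 18234 genes were called, 16.1%, against 14.3% with unexercised ones. Both fits hold the same older fish, and their counts do not say which genes were called.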

How the data were processed

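Skin RNA of male killifish was sequenced from 20 TruSeq libraries, and 10 libraries are compared here. The authors used STAR 2.4.1d, featureCounts 1.4.6-p4 and bcl2fastq 1.8.4, per the submitters' processing notes. Neither genome build nor annotation, nor how strand and multiply matching reads were handled, is given in the sources used here, so overlapping genes, close copies and antisense partners may share reads. The deposited counts are whole reads per gene, not normalized. In the deposited RPKM table, reads are divided by gene length and a library total. They were used only to recover gene lengths, since for 10228 genes the authors' values matched the counts only with the library totals repeated down its rows (within an SD of 0.001 of the natural log ratio in 100% of genes, against 0% with own totals).

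Counts were tested with edgeR 4.0.16 in R 4.3.3: its expression filter, TMM scaling, a robust quasi-likelihood fit, and Benjamini-Hochberg adjustment over all tested genes, with a threshold of 0.05. Standard errors were derived from the F statistic, as the size of the log2 fold change over its root, and fold changes are those of the fit. A prior count of 2 entered log2 CPM. Library measures were compared by exact permutation, where 5 against 5 libraries give p = 0.00794 at the least. No pair of libraries within a group agreed within sampling noise (lowest chi-square per degree of freedom 36.3 over 20 pairs). The number of counts limits precision, and values at few counts carry counting error. Replicates are numbered in sample order and are not paired.

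Genes were named if called, at a mean of at least 1 CPM and with groups that did not overlap, taking the 2 largest changes in each direction. The comparison, classes and lists were chosen with earlier results of these data known. Marker lists need gene names and were not used. Alternatives were DESeq2 1.42.0, limma-voom (limma 3.58.1), other scalings, filters and reference fish, 1 surrogate variable (sva 3.50.0), thinning, all 20 libraries in 1 fit and leaving out fish.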

Additional observations from a re-analysis of the deposited data

Results flagged for a closer look

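Single values far from the rest of their group were looked for in 22 sets of 5 fish. The sets were library measures, component scores and the 4 named genes. Chance would give about 1.1 such values in independent sets, which these are not, so that number is no test. There were 3 such values, all in replicate 2 of the 27-week fish. It had 16778 genes at 1 CPM or more, against at most 16251 in the other 4 fish. It lay at -44.9 on the first principal component, and the next fish of that group lay at 40.9, and at 70.0 on the second, with the nearest at 20.0. Its count of genes over 4-fold above its group's median was 493. Counts of calls, calls beyond 2-fold and 4-fold, the named genes and the library measures were also obtained without this fish. The level classes were recounted only without both fish that stood apart. The comparison with the libraries outside was not repeated without it.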

How the results depend on the processing

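No paired analysis was possible because replicates are numbered in sample order and the labels pair no fish across the groups. The 2628 calls (1332 higher and 1296 lower) became 3948 with DESeq2 (2048 higher and 1900 lower) and 4231 with library totals alone (628 higher and 3603 lower). Counts within 1.5 times came from limma-voom (2529), DESeq2's size factors (2596), no count filter (2265) and 1 CPM in 5 libraries (2685). They also came from all 20 libraries in 1 fit (3203), 1 surrogate variable (2143) and thinning to the smallest total (2503). The exercised 9-week fish as reference, which is a different contrast, gave 2927 calls. That count does not say whether the same genes were called. Leaving out each fish gave 1446 to 3156 calls, 762 to 1532 higher and 673 to 1624 lower. Leaving out both fish that stood apart, a setting chosen after the data were seen, gave 3387. The cause of these shifts was not tested, and leaving out a fish also leaves fewer samples. With 1 surrogate variable, 1742 of the 2628 genes remained called in the same direction. The 4 named genes kept their direction and their call in every fit of this contrast that tested them; Nfu_g_1_013635 was not tested under the filter of 1 CPM in 5 libraries.

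The difference in scaling factor, -0.151, was -0.174 to -0.126 without single fish, and did not pass the correction without 9-week replicate 3 (adjusted p = 0.0794) or any 27-week fish (0.119 to 0.159). The other 4 library measures passed under none of their alternatives.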
